A study of Danio rerio with 4 samples.

Results

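Podocytes are the cells that wrap the capillaries of the kidney glomerulus, and the slit diaphragm is the thin junction between their foot processes through which plasma is filtered. Nephrin and its partners form the diaphragm, adaptor proteins tie it to an actin skeleton, a sialylated coat keeps the processes apart, and the Wilms tumour transcription factors hold the cells in their identity. In zebrafish the larval kidney, the pronephros, has a glomerulus of this kind and filters blood well before the end of larval life.

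The genes described here are the rows of a TPM table whose symbol was nphs1, podxl, wt1a, wt1b, cd2ap, ptpro, myo1eb, robo2 or tjp1b, 9 symbols in all. They matched 11 of the 32520 distinct gene IDs, because ptpro and robo2 each stood for 2 IDs. The libraries were made from RNA of whole zebrafish larvae (Danio rerio), 5 to 7 larvae for each group. Controls were untreated (2 libraries), and exposed larvae received 12000000 smog particles, labelled PM2.5, from 72 to 120 hours after fertilization (2 libraries). No strain is given in the sources used here. The labels name more than 1 RNA kit and more than 1 sequencer, with no assignment to libraries. Whether libraries stand for different clutches or exposures is not stated, and the p-values therefore describe library-to-library spread alone, possibly technical. The question in the series title is damage to the glomerulus by PM2.5.

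TPM is a gene's read number divided by its length and scaled to the same total in every library. Because the values were deposited with up to 10 digits, the whole read numbers behind them could be worked out, and with them the value of a single read. Summed over genes, these read numbers came to 19035608 and 14792942 in the controls and 23668649 and 15197932 with PM2.5. The deepest, PM2.5 library 1, had the fewest genes above 0 (24121, against 24923 to 25138 in the others), and results that turn without it are given as such. The same step gave the gene lengths behind the table, up to 1 factor common to all genes. The intervals given for read numbers are exact 95% Poisson intervals and cover counting error only.

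All 11 rows were detected in all 4 libraries, and their levels in TPM, a scale already divided by length, spanned more than 2 orders of magnitude. In controls the order of mean levels was the shorter ptpro row, the longer robo2 row, the longer ptpro row, the shorter robo2 row, tjp1b, podxl, cd2ap, myo1eb, wt1a, wt1b and nphs1. Neighbours in that order did not overlap between the control libraries, except the first pair and the pair of wt1a and wt1b. Whole-larva RNA carries no cell of origin. A gene's TPM here can come from tissues other than the glomerulus, and fewer cells of a type cannot be told apart from less RNA per cell.

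**Figure D1:**
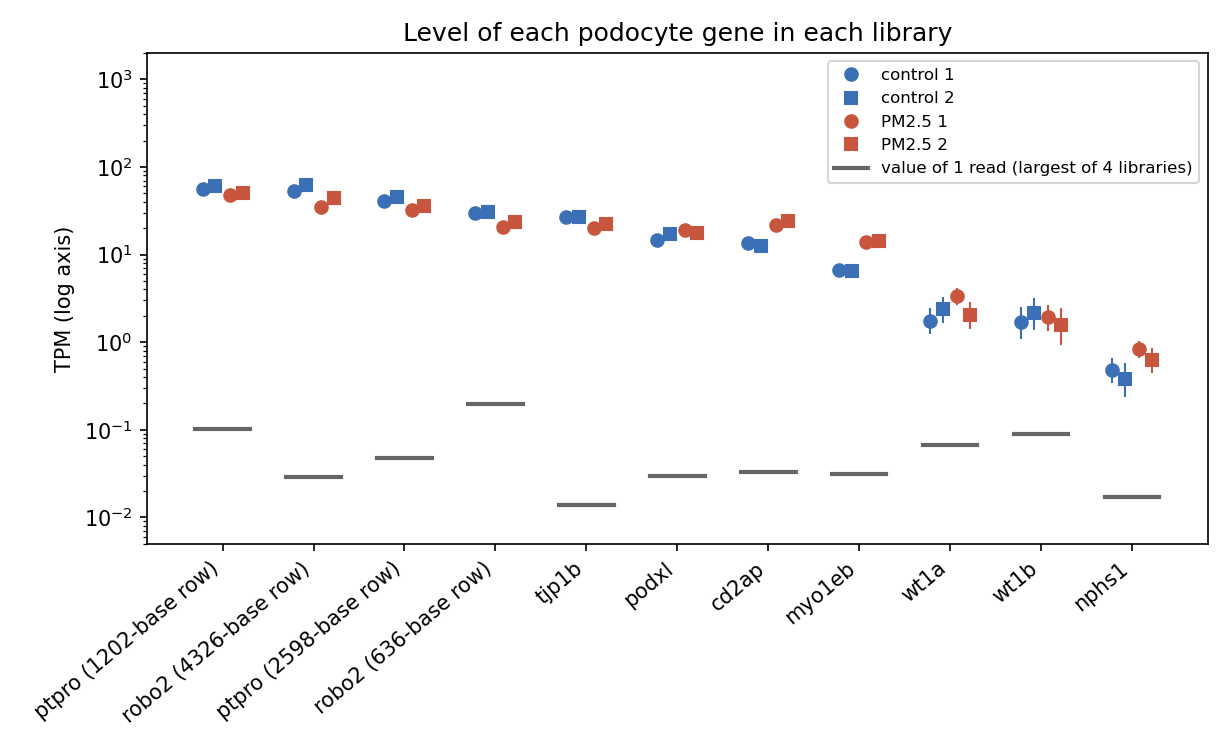
TPM of each of the 11 rows (log axis) in the 4 libraries, circles for replicate 1 and squares for replicate 2 of each group. Bars are 95% Poisson intervals of the read number, and the grey line is the TPM that 1 read is worth in the library where it is worth most. Podocyte-defining nphs1, wt1a and wt1b lie far below the other rows, yet above the value of 1 read.

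Nephrin, encoded by nphs1 (ENSDARG00000060758, chromosome 15), is the immunoglobulin-family protein that spans the slit, and its transcript was the lowest of the members. It was at 0.482 and 0.378 TPM in control larvae and at 0.830 and 0.631 TPM in the exposed larvae. These values rest on 37 and 22 reads in the controls and on 79 and 38 reads in the exposed larvae. Both exposed libraries lay above both controls, and the groups did not overlap. Of the 27099 genes above 0 in at least 1 library, 18.1% had a lower mean than nphs1.

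The length behind nphs1 was 7238 bases, so 1 read was worth between 0.0105 and 0.0172 TPM, depending on the library. A count of 3 reads would have been at most 0.0515 TPM, and the lowest nphs1 value stood well above that. Counting error alone was still wide: the interval ran from 0.237 to 0.572 TPM in control 2 and from 0.446 to 0.865 TPM in PM2.5 library 2, and these 2 intervals overlap. The mean over all libraries was 0.580 TPM, under the minimum of 1 TPM set for testing. The ratio of the exposed mean to the control mean was 1.70. With no minimum, limma on log2(TPM + 1) gave a log2 fold change of 0.27 (95% confidence interval -0.21 to 0.76, adjusted p = 0.475), a scale that compresses a gene this low. limma voom on the read numbers with no minimum, chosen after seeing the data, gave 0.77 (-0.11 to 1.66, adjusted p = 0.244). Neither passed 0.05, and both intervals include 0.

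Neighbouring kirrel3l, which encodes a protein of the Neph family, overlaps nphs1 in the RefSeq gene table (assembly GRCz12tu) and is named for that reason, after its values were seen. It was at 12.5 and 13.3 TPM for controls and 15.4 and 13.6 TPM for exposed ones (log2 fold change 0.16, adjusted p = 0.484), far above nphs1. The strand setting of the counting is not given, so reads of overlapping genes may not be separated. The build named for the reads is GRCz11, so the counted gene models may overlap otherwise.

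The Wilms tumour genes wt1a (ENSDARG00000031420, chromosome 25) and wt1b (ENSDARG00000007990, chromosome 18) encode zinc finger transcription factors of podocyte precursors and podocytes, and wt1 genes are also active in the epicardium and mesothelium. The wt1a transcript was at 1.76 and 2.39 TPM in the control libraries and at 3.37 and 2.05 TPM in exposed larvae. PM2.5 library 1 alone was high, and PM2.5 library 2 lay between the controls. For wt1b the values were 1.70 and 2.15 TPM for controls and 1.92 and 1.56 TPM in exposed larvae, also overlapping.

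Read numbers were small for both paralogs, between 32 and 83 for wt1a and between 18 and 35 for wt1b. At 18 reads the counting interval of wt1b in PM2.5 library 2 ran from 0.922 to 2.46 TPM. The log2 fold changes were 0.26 for wt1a (95% confidence interval -0.44 to 0.95, adjusted p = 0.621) and -0.09 for wt1b (-0.74 to 0.55, adjusted p = 0.861). Intervals this wide do not show that the genes were alike in both groups. Leaving out PM2.5 replicate 1 turned the wt1a value to -0.0035. The wt1b value turned to 0.017 without control replicate 2 and to 0.0017 without PM2.5 replicate 2. In the RefSeq table, on GRCz12tu and not the GRCz11 named for the reads, wt1b overlaps 5 other protein-coding genes. Whether the counted gene models overlap likewise is not known, so the few reads of wt1b are uncertain. In the same table cd2ap overlaps 1 protein-coding gene and ptpro another, rerg, and the same limit holds for them.

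Among 22 tested transcription factors listed for podocytes, wt1a and wt1b included, none passed the threshold in either direction (limma; 5 higher and 1 lower at an unadjusted p under 0.05; 2 higher and none lower with voom). The 2 with the smallest p were foxi3a, in zebrafish a factor of skin ionocytes (4.91 ± 0.233 to 12.3 ± 5.33 TPM, SD, n = 2, adjusted p = 0.058), and mafbb, a Maf-family factor (6.97 ± 2.56 to 14.1 ± 1.86 TPM, adjusted p = 0.058). The 2 called with voom were foxi3a and mafbb (adjusted p = 0.015 and 0.017). Both also passed limma with a minimum of 5 TPM (0.037 and 0.038), where 13.1% of all genes were called higher. Neither passed limma after TMM-type rescaling (0.082 and 0.084) or quantile normalization (0.097 and 0.094). The list's median log2 fold change was 0.10, against 0.07 over all tested genes. Of all tested genes 8.46% were called higher and 2.62% lower. At an unadjusted p under 0.05 these shares were 19.3% and 7.83%, and with voom 12.3% and 5.62%.

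Podocalyxin, encoded by podxl (ENSDARG00000031228, chromosome 4), is the negatively charged sialomucin of the podocyte's apical coat and is also made by vascular endothelium. It was at 14.9 and 17.2 TPM in control larvae and at 19.1 and 17.6 TPM in exposed larvae. Both exposed values were above both controls, by little in PM2.5 library 2. With 575 to 1045 reads per library its counting error was small, and its log2 fold change was 0.19 (95% confidence interval -0.11 to 0.49, adjusted p = 0.386). It did not pass under any alternative. Vascular endothelium markers were summed at 73.5 and 80.4 TPM in the control libraries and at 69.2 and 72.8 TPM in exposed larvae. Of 13 such genes tested none passed (1 lower at an unadjusted p under 0.05, none with voom; median -0.13), and none was at 0. Of all tested genes 8.46% were called higher and 2.62% lower. At an unadjusted p under 0.05 these shares were 19.3% and 7.83%, and with voom 12.3% and 5.62%. The part of vascular endothelium in the podxl value was not tested.

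Of 10 tested genes listed for the apical coat, 7 were higher and 0 lower at an unadjusted p under 0.05. Over all genes 19.3% were higher and 7.83% lower at that p. With voom the list had 5 and 0, beside 12.3% and 5.62% over all genes, and its median log2 fold change was 0.35. Past the adjusted threshold with limma, 4 of the 10 rose and none fell, beside 8.46% and 2.62% over all genes. They were ezrb, which encodes ezrin, the linker between podocalyxin and actin (28.9 ± 3.29 to 46.5 ± 0.715 TPM, adjusted p = 0.013), cdc42l (48.0 ± 2.36 to 90.7 ± 3.57 TPM, adjusted p = 0.0015), and the vesicle traffic genes rab11a and rab11ba, named after their values were seen. Of 16 symbols in the list 10 matched, and nherf1a, nherf1b and nherf2 were among those that did not. After TMM-type rescaling 2 of the list were called higher, ezrb and cdc42l, where 6.04% of all genes were. Quantile normalization also called 2 higher, where 6.34% of all genes were. Without 1 library cdc42l kept its call in 4 of 4 fits and ezrb in 0 of 4 (adjusted p between 0.057 and 0.118). The ezrb paralog ezra stood at 10.98 ± 1.25 TPM for controls and 10.4 ± 1.47 TPM in exposed larvae (adjusted p = 0.823), and its sign turned without control replicate 2 or PM2.5 replicate 2.

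The main fit used TPM as deposited, a minimum of 1 TPM and group as the only term. In it only cd2ap and myo1eb passed the threshold of 0.05, both as higher. They were 2 of the 10 rows tested, where 8.46% of all 20874 tested genes were called higher (limma on log2(TPM + 1), Benjamini-Hochberg adjustment over all tested genes). None of the 10 was called lower, where 2.62% of all genes were, although 5 were lower at an unadjusted p under 0.05 and 3 with voom. At that unadjusted p 7.83% of all genes were lower and 19.3% higher, and with voom 5.62% were called lower and 12.3% higher. Control and exposed values were separate in 9 of the 11 rows, 4 of them higher in PM2.5, the untested nphs1 included, and 5 lower. The 5 lower rows belong to ptpro, robo2 and tjp1b alone. Over all tested genes, 36.6% were non-overlapping higher and 19.7% non-overlapping lower. The median log2 fold change of the 10 rows was -0.16, and it was 0.07 over all tested genes. In the median of the 10 rows ptpro and robo2 each count with 2 rows, all below 0, so it is no median over genes. Under the alternatives that kept all 4 libraries, cd2ap and myo1eb were called higher each time. The share of all genes called higher was then 8.44% with a pseudocount of 0.1 TPM, 4.96% with no minimum, 13.1% with a minimum of 5 TPM, 6.04% with TMM-type scaling and 6.34% with quantile normalization. It was 9.93% with replicate number as a block, 12.3% with voom and 9.88% with voom and no minimum. Without 1 library it was 1.48% and 1.78% (controls 1 and 2 left out) and 1.37% and 1.75% (PM2.5 libraries 1 and 2 left out).

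CD2-associated protein, encoded by cd2ap (ENSDARG00000015224, chromosome 20), is the SH3-domain adaptor that links nephrin to the actin skeleton, and it also acts in membrane traffic and in T cells. Its transcript was at 13.4 and 12.6 TPM in the control libraries and at 21.7 and 24.1 TPM in exposed larvae. Controls were close together, and both exposed libraries were clearly higher. The log2 fold change was 0.77 (SE 0.12, 95% confidence interval 0.49 to 1.05, adjusted p = 0.012), a ratio of means of 1.76.

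Myosin 1e, a single-headed myosin whose human gene is mutated in hereditary nephrotic syndrome, binds membranes and actin in podocytes and other cells. Its zebrafish gene myo1eb (ENSDARG00000009133, chromosome 16) was at 6.69 and 6.55 TPM in the control libraries and at 13.8 and 14.2 TPM in exposed larvae. The 2 libraries within each group differed far less than the groups did. The log2 fold change was 0.97 (SE 0.13, 95% confidence interval 0.65 to 1.30, adjusted p = 0.0080), with a ratio of means of 2.11. Both genes also passed with TMM-type rescaling (0.69 and 0.89) and with quantile normalization (0.68 and 0.86). Neither passed once any 1 library was left out, with adjusted p between 0.084 and 0.120 for cd2ap and between 0.082 and 0.101 for myo1eb, while the fold changes stayed between 0.70 and 0.84 and between 0.95 and 0.99.

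The paralog myo1ea (chromosome 7) was at 8.50 and 9.01 TPM in the control libraries and at 10.2 and 11.02 TPM with PM2.5. Its change of 0.25 did not pass (adjusted p = 0.295). A ratio of 2 genes within a library does not depend on how the library was scaled. The ratio of myo1eb to myo1ea was 0.787 and 0.727 in controls and 1.34 and 1.28 in exposed larvae. So myo1ea was the more abundant of the pair in controls and myo1eb in exposed larvae, in every library. An exact permutation test of 2 libraries against 2 cannot give a two-sided p under 0.333, and it gave that value for the log2 difference of 0.80.

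Of 22 tested genes in the wider list of the podocyte actin skeleton, 10 were higher and 0 lower at an unadjusted p under 0.05. Over all genes 19.3% were higher and 7.83% lower at that p. With voom the list had 10 and 0, beside 12.3% and 5.62% over all genes, and its median log2 fold change was 0.26. Past the adjusted threshold with limma, 6 of the 22 were higher and none lower, beside 8.46% and 2.62% over all genes. Those with the smallest p were the cofilin-like gene cfl1l (228 ± 1.49 to 419 ± 5.12 TPM, adjusted p = 0.00026) and myh9a, a non-muscle myosin heavy chain gene (24.6 ± 0.308 to 62.5 ± 1.35 TPM, adjusted p = 0.00052). Both kept the call without any 1 library. The others were myo1eb, ezrb and, named after their values were seen, arhgdia and iqgap1, an actin scaffold gene. All are used by many cell types.

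Markers of some other cell types also differed between the groups, some higher and some lower with PM2.5. Over all tested genes 8.46% were called higher and 2.62% lower, the shares to set beside each list here. At an unadjusted p under 0.05 these shares were 19.3% and 7.83%, and with voom 12.3% and 5.62%. Of 19 tested epithelium and skin markers 11 rose and 4 fell, with 15 log2 fold changes above 0 and a median of 0.60. Their summed level, in which abundant genes weigh most, went from 12866 and 12682.5 TPM in controls to 6423 and 6453 TPM in exposed larvae. The 4 that fell included the abundant keratin genes krt4 (4965 ± 85.3 to 1964 ± 19.3 TPM) and cyt1l (771 ± 7.90 to 117 ± 0.362 TPM). Macrophage markers rose in 5 of 17 tested genes and fell in none (8 and 0 at an unadjusted p under 0.05, 5 and 0 with voom). The rest of the 17 did not pass, 2 lay below 0, and the median log2 fold change was 0.47. The macrophage markers were summed at 55.5 and 59.99 TPM in the control libraries and at 252 and 249.5 TPM in exposed larvae. Those with the smallest p were ctss2.2 (6.71 ± 1.09 to 56.4 ± 3.45 TPM) and grn2 (7.75 ± 2.27 to 56.3 ± 4.84 TPM). Neutrophil and pan-leukocyte markers rose in 5 of 14 and fell in 1, with a median log2 fold change of 0.48. Their summed levels were 182 and 191 TPM for controls and 245 and 256 TPM in exposed larvae. The oxidase gene cyba (12.7 ± 4.29 to 67.0 ± 0.738 TPM) and the actin bundling gene lcp1 (13.4 ± 0.635 to 29.8 ± 3.35 TPM) had the smallest p there. Without 1 library cyba kept its call in 2 of 4 fits (adjusted p up to 0.067) and lcp1 in 1 of 4 (up to 0.069). No gene of these 3 lists was at 0 in all libraries. Their part in the rise of cd2ap and myo1eb was not tested.

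**Figure D2:**
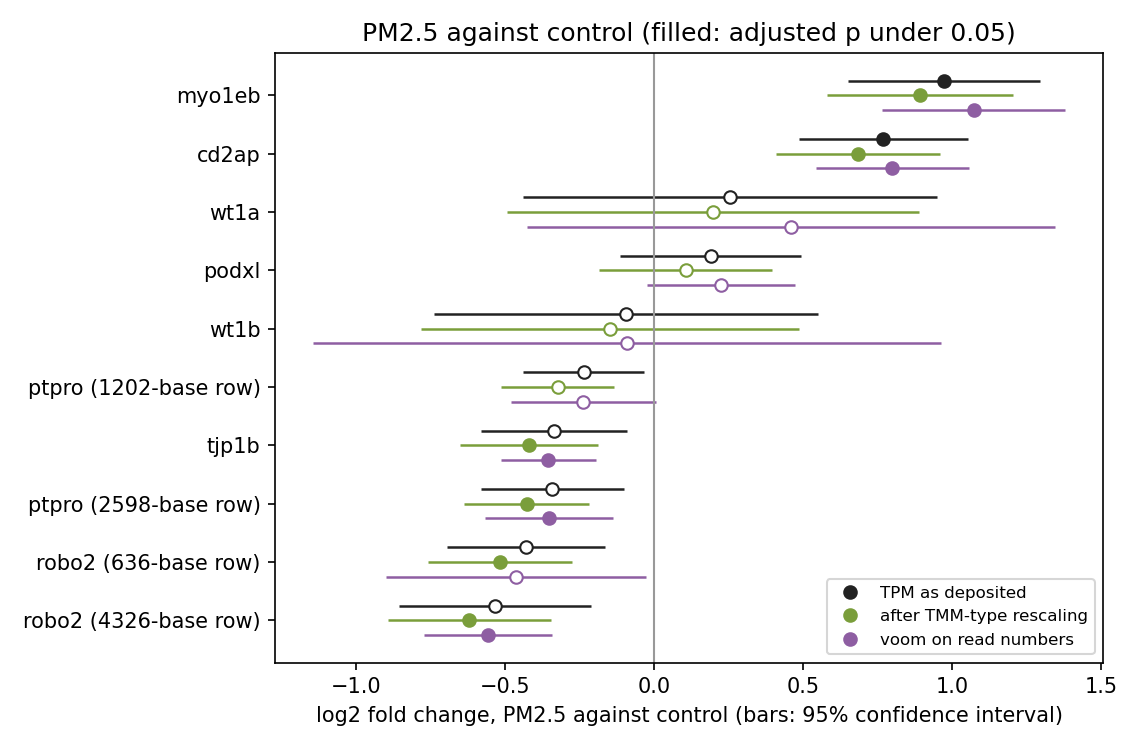
Log2 fold change of the 10 tested rows in 3 fits (deposited TPM, TMM-type rescaling, voom on read numbers), with 95% confidence intervals; filled points have an adjusted p under 0.05. The myo1eb and cd2ap points are filled in all 3 fits, and the robo2, ptpro and tjp1b rows lie below 0 in all 3, with none filled as deposited.

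The remaining members, ptpro, robo2 and tjp1b, were lower in both exposed libraries than in both controls in all 5 of their rows. Over all tested genes 19.7% were non-overlapping lower and 36.6% non-overlapping higher. All other member rows were higher or overlapping, so the full count here follows from the grouping. None of the rows of these genes passed in the main fit. On the same deposited TPM some passed with a replicate block or a minimum of 5 TPM, as given below. The receptor tyrosine phosphatase gene ptpro is known from the apical face of podocytes and from neurons. Its longer row (ENSDARG00000100422, chromosome 4, length 2598 bases) was at 41.3 and 45.3 TPM in the control libraries and at 32.2 and 35.8 TPM in exposed larvae. The shorter row (ENSDARG00000110470, chromosome 4, length 1202 bases) was at 56.1 and 61.4 TPM for controls and 48.5 and 50.9 TPM in exposed larvae. Groups were separate in both rows, with log2 fold changes of -0.34 (95% confidence interval -0.58 to -0.10, adjusted p = 0.083) and -0.24 (-0.44 to -0.03, adjusted p = 0.136). The shorter row over the longer one was 1.36 and 1.35 in controls and 1.504 and 1.42 in exposed larvae.

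The Slit receptor gene robo2, known in zebrafish as astray from its role in guiding retinal axons, also has a role in kidney outgrowth and podocytes in mammals. Its longer row (ENSDARG00000014891, chromosome 15, length 4326 bases) was at 52.8 and 61.9 TPM in the control libraries and at 35.2 and 43.7 TPM in exposed larvae, from 1574 to 2419 reads. The shorter row (ENSDARG00000078366, chromosome 15, length 636 bases) was at 29.7 and 30.3 TPM in the control libraries and at 20.5 and 23.6 TPM in exposed larvae, from 125 to 200 reads. All exposed values were below all control values in each row. The log2 fold changes were -0.53 (95% confidence interval -0.85 to -0.21, adjusted p = 0.055) and -0.43 (-0.70 to -0.17, adjusted p = 0.058). How reads were divided between IDs that share a symbol is not given, so neither row is a full count of the gene.

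ZO-1, encoded by tjp1b (ENSDARG00000079374, chromosome 25), is a scaffold that ties junction proteins, those of the slit included, to actin, and it is present in most epithelia and at neuronal electrical synapses. It was at 26.9 and 27.2 TPM in the control libraries and at 20.4 and 22.2 TPM in exposed larvae. The controls were nearly equal, and both exposed libraries were lower. Its log2 fold change was -0.33 (95% confidence interval -0.58 to -0.09, adjusted p = 0.092).

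These 5 rows were below 0 in each alternative fit, but their call depended on the fit. They stand for ptpro, robo2 and tjp1b alone, and rows that share a symbol are not independent. Counts of rows are therefore not counts of genes. After TMM-type rescaling 4 of the 10 rows were called lower, where 3.74% of all genes were: both robo2 rows (-0.62 and -0.52), the longer ptpro row (-0.43) and tjp1b (-0.42), with adjusted p between 0.025 and 0.047. After quantile normalization, which moved the median of all tested genes by -0.11, all 5 were called lower, where 4.61% of all genes were. Voom on read numbers called 3 of them, the longer robo2 and ptpro rows and tjp1b, where 5.62% of all genes were called lower. With voom and no minimum the same 3 were called, where 4.54% of all genes were. Replicate number as a block, on TPM as deposited, called 3, both robo2 rows and the longer ptpro row (adjusted p between 0.012 and 0.046), where 3.74% of all genes were called lower. A minimum of 5 TPM called both robo2 rows, where 4.36% of all genes were called lower. With a pseudocount of 0.1 TPM (2.56% of all genes lower) or no minimum (1.49%) none was called. None was called when 1 library was left out either, where 0.335% and 0.398% (controls 1 and 2) and 0.393% and 0.594% (PM2.5 libraries 1 and 2) of all genes were.

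The paralog tjp1a (chromosome 7) was at 31.7 and 36.6 TPM for controls and 28.2 and 32.8 TPM in exposed larvae, overlapping groups that differed by -0.16 on the log2 scale (adjusted p = 0.445). The ratio of tjp1b to tjp1a was 0.848 and 0.743 in controls and 0.722 and 0.676 in exposed larvae, a log2 difference of -0.18 (exact permutation p = 0.333, the smallest possible). Among Robo receptors, robo1 (chromosome 15) passed as lower, from 24.2 and 25.2 TPM in controls to 15.5 and 17.3 TPM in exposed larvae (-0.56, SE 0.11, adjusted p = 0.028), and lost the call without any 1 library (adjusted p between 0.086 and 0.209). The axon guidance receptor gene robo3 had -0.31 (adjusted p = 0.178), and the endothelial robo4 -0.15 (adjusted p = 0.618).

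The longer robo2 row over robo1 was 2.18 and 2.46 in controls and 2.26 and 2.52 in exposed larvae, overlapping ranges with a log2 difference of 0.04 (exact permutation p = 0.667). For wt1a over wt1b the ratio was 1.04 and 1.11 in controls and 1.76 and 1.32 in exposed larvae (log2 difference 0.50, exact permutation p = 0.333). The wt1a and wt1b ratio rests on few reads.

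**Figure D3:**
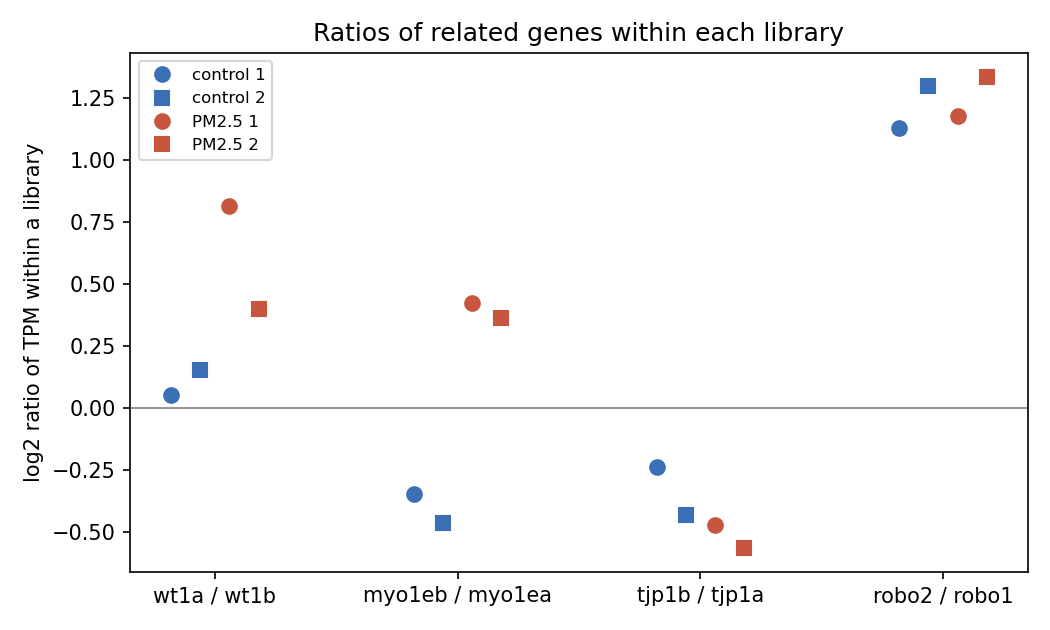
Log2 ratio of TPM between related genes within each library, circles for replicate 1 and squares for replicate 2. The myo1eb to myo1ea ratio lies below 0 in both controls and above 0 in both exposed libraries, while the robo2 to robo1 ratio overlaps between groups.

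In the list of Slit ligands, Robo receptors and their intracellular partners, 2 of 18 tested rows rose and 1 fell. These shares of 11.1% and 5.56% stand beside 8.46% higher and 2.62% lower over all genes, as does the neuron count below. At an unadjusted p under 0.05, 2 rose and 5 fell, and with voom 2 and 4. The shares over all genes were then 19.3% and 7.83%, and 12.3% and 5.62% with voom. The list's median log2 fold change was -0.15. The risers were the actin elongation genes vaspa and vaspb (28.0 ± 0.128 to 61.8 ± 1.38 TPM for vaspb, adjusted p = 0.00086), and the gene that fell was robo1; vaspa was named after its values were seen. Neuron markers fell in 1 of 17 tested genes and rose in none (5 and 0 at an unadjusted p under 0.05; 3 and 0 with voom; median -0.11). The gene was nefla, a neurofilament gene (11.2 ± 1.26 to 6.46 ± 0.0920 TPM, adjusted p = 0.037), which lost the call with no minimum (adjusted p = 0.067) and without any 1 library (between 0.133 and 0.262), and nefma had -0.25 (adjusted p = 0.104). Their summed level was 2708 and 2777 TPM for controls and 2619 and 2650 TPM in exposed larvae, and none was at 0. The part of neurons in the lower robo2 and ptpro values was not tested.

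The slit diaphragm list held 34 tested rows, of which 3 rose and none fell (7 and 4 at an unadjusted p under 0.05; 4 and 4 with voom), with a median log2 fold change of -0.04. That share of 8.82% stands beside 8.46% for all genes, of which 2.62% fell. At an unadjusted p under 0.05, 19.3% of all genes were higher and 7.83% lower, and with voom 12.3% and 5.62%. TMM-type rescaling called 2 rows of the list higher and 3 lower, beside 6.04% and 3.74% over all genes. Quantile normalization called 2 higher and 4 lower, beside 6.34% and 4.61%. The lower side of this list thus depended on the fit. Besides cd2ap the risers were pard6a (14.7 ± 1.83 to 32.9 ± 2.69 TPM, adjusted p = 0.0045) and prkci (22.9 ± 0.835 to 31.5 ± 0.226 TPM, adjusted p = 0.034), which encode an adaptor and an atypical protein kinase C of the cell polarity complex. The call of prkci was lost after TMM-type rescaling (limma adjusted p = 0.083), quantile normalization (0.088) and without any 1 library. That of pard6a held in 1 of 4 fits without 1 library.

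Genes for adhesion of podocytes to the basement membrane had none of 22 tested past the threshold (3 higher and 3 lower at an unadjusted p under 0.05; 2 and 2 with voom; median 0.09). The talin gene tln2a (-0.49, adjusted p = 0.071) and lims1, a partner of integrin-linked kinase (0.34, adjusted p = 0.119), had the smallest p. Of 26 tested genes from other hereditary forms of nephrotic syndrome in humans 1 rose, or 3.85%, and none fell. At an unadjusted p under 0.05 it was 5 and 1, and with voom 4 and 1 (median 0.22). The riser was pdss2, a coenzyme Q synthesis gene (3.01 ± 0.264 to 6.45 ± 1.26 TPM, adjusted p = 0.047). Next by p among genes that are no members was mafbb, described above (limma adjusted p = 0.058). Beside both lists stand 8.46% called higher and 2.62% lower over all tested genes. At an unadjusted p under 0.05 these shares were 19.3% and 7.83%, and with voom 12.3% and 5.62%. The call of pdss2 was lost after TMM-type rescaling (limma adjusted p = 0.052), quantile normalization (0.055) and with no minimum (0.089). It was also lost without any 1 library.

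The lists of glomerular endothelium and mesangium, pronephric tubule, and epicardium and mesothelium had no gene past the threshold. Beside each list here stand 8.46% called higher and 2.62% lower over all tested genes. At an unadjusted p under 0.05 these shares were 19.3% and 7.83%, and with voom 12.3% and 5.62%. Glomerular endothelium and mesangium had 0 of 19 (none higher and 1 lower at an unadjusted p under 0.05, none with voom; median -0.17), with angpt2a (-0.77, adjusted p = 0.108) and pdgfrb (-0.27, adjusted p = 0.363) first by p. Pronephric tubule markers had 0 of 18 (3 higher and 2 lower at an unadjusted p under 0.05; 3 and 1 with voom; median 0.05), with cdh17 (0.31, adjusted p = 0.075) and slc12a3 (0.39, adjusted p = 0.109) first. Their summed level was 197 and 198 TPM for controls and 202 and 208 TPM in exposed larvae. Epicardium and mesothelium markers, relevant to wt1a and wt1b, had 0 of 7 past the threshold (2 higher and none lower at an unadjusted p under 0.05, none with voom; median 0.05), led by tgfb3 (0.29, adjusted p = 0.122) and hand2 (0.44, adjusted p = 0.181). They were summed at 44.7 and 45.0 TPM in the control libraries and at 55.8 and 52.4 TPM in exposed larvae. In the vascular endothelium list, given with podxl, the first by p were egfl7 (-0.53, adjusted p = 0.083) and pecam1 (-0.40, adjusted p = 0.251). After quantile normalization egfl7 was called lower (limma adjusted p = 0.048), where 4.61% of all genes were.

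**Figure D4:**
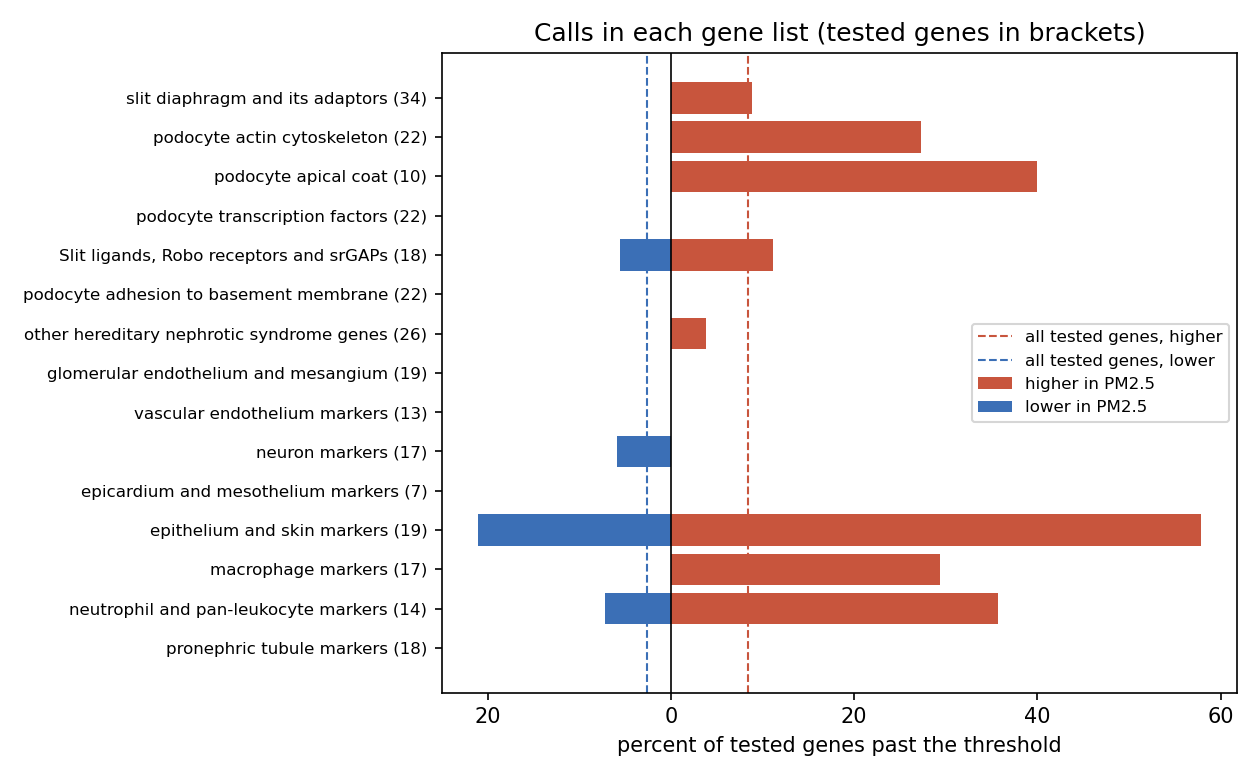
Percent of the tested genes of each list called higher (right) or lower (left) in PM2.5 at an adjusted p under 0.05, with the tested number in brackets and dashed lines for all tested genes (8.46% higher, 2.62% lower). On the higher side the slit diaphragm list lies near the line for all genes, and it has no lower call in this fit. The lists of podocyte transcription factors, basement membrane adhesion and pronephric tubule have no call.

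Likeness of pattern was measured as the root mean square difference of log2(TPM + 1) over the 4 libraries, each gene centred on its mean, among 258 tested genes of the lists that are no members. It is a description over 4 libraries. The closest gene to the longer robo2 row was fat1a, a giant cadherin gene (26.1 and 30.5 TPM without and 17.6 and 21.6 TPM with exposure), at 0.013. Both tjp1b and the shorter robo2 row were closest to crb2b, a Crumbs polarity gene, at 0.031 and 0.028. The longer ptpro row was closest to rbfox3a, a neuronal splicing factor gene, at 0.028, and the shorter one to nefma, at 0.029. For myo1eb it was cfl1l (0.049), for cd2ap the phagocyte oxidase gene cybb (0.051), for podxl emp2 (0.025), for wt1b ezra (0.028) and for wt1a the phagocyte oxidase gene ncf4 (0.074).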

How the data were processed

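RNA sequencing of whole larvae was deposited by the authors as 1 table of TPM. Cutadapt 1.18, STAR 2.6.1c and the build GRCz11 are named, per the submitters' processing notes, but no counting program, annotation, strand setting or rule for shared reads. Per the labels' protocols reads were 150 bases, paired, from RNA with an integrity number above 7.8. Of 32925 rows, 405 repeated an ID with the same TPM and were dropped. Groups came from the titles.

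Read numbers were the smallest whole numbers whose ratios matched a gene's TPM, within rounding and at most 0.02 reads. They were found for 25329 of 25331 genes above 0 in at least 2 libraries, with 0.00122 matches expected by chance over all genes. A factor common to all 4 numbers of a gene would be missed. On simulated counts 92.1% of genes came back exactly and 99.8% up to such a factor. Lengths came out whole for 97.6% of 12624 well-read genes, and microRNA rows had a median of 96 bases.

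A gene was tested where its mean reached 1 TPM, with limma 3.58.1 (R 4.3.3) on log2(TPM + 1), group as the only term, eBayes with trend. Tests were two-sided at a Benjamini-Hochberg adjusted p of 0.05. That scale understates changes of low genes. In 20 simulated sets of counts 10.8% of changes of 0.5 (log2) and 75.4% of changes of 1 were called. False calls made up 8.79% of calls, above the threshold. The simulation gave all genes the same dispersion, so these shares may not hold for the real libraries. Each gene has 2 residual degrees of freedom and gains 4.15 from other genes. TMM-type rescaling used trimmed means of log ratios to control 1 (30% of ratios and 5% of levels off each end). Alternatives were a pseudocount of 0.1 TPM, no minimum, a minimum of 5 TPM, both rescalings, a replicate block, voom on the read numbers and leaving out each library; voom with no minimum was chosen after seeing the data.

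Members and lists were chosen with earlier results of these data known. Named genes are the members, their family, the 2 smallest p per list and the nearest pattern. Of 288 listed symbols 273 matched, podxl2 not among them. A gene that the rule takes is not reported here by name but enters the counts. No sequences are printed.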

Additional observations from a re-analysis of the deposited data

How the results depend on the processing

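Of 118 fold changes of member rows under the alternatives in which a row was tested, 3 changed sign, all in wt1a and wt1b: without 1 library wt1a ran from -0.0035 (PM2.5 replicate 1 left out) to 0.51, and wt1b from -0.20 to 0.017 (control replicate 2 left out), with 0.0017 without PM2.5 replicate 2. The value of ezra ran from -0.20 to 0.061 (PM2.5 replicate 2 left out), with 0.036 without control replicate 2. The number of member rows called higher was 2 in every alternative that kept all 4 libraries and 0 in all 4 fits that left out 1. Rows called lower numbered 0 as deposited, 2 with a minimum of 5 TPM, 4 after TMM-type rescaling, 5 after quantile normalization, 3 with the replicate block, 3 with voom and 3 with voom and no minimum. All rows called lower belong to ptpro, robo2 and tjp1b. Over all genes 1766 were higher and 547 lower. Leaving out 1 library gave 286 to 371 higher and 70 to 124 lower, with the lone library of a group assumed to vary like the others. Lower genes numbered 962 after quantile normalization, 1168 with voom and 1150 with voom and no minimum; the cause was not tested. Higher genes made up 76.4% of calls in the main fit, 61.8% with TMM-type and 57.9% with quantile scaling.

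Replicate numbers pair the libraries only by name (correlation of same-numbered deviations 0.065). With the replicate block 2072 genes were higher and 781 lower. The ratio of robo2 to robo1 had a log2 difference of 0.04, and ran from -0.040 (control replicate 1 left out) to 0.13, with -0.034 without PM2.5 replicate 2. The ratio of the longer to the shorter robo2 row had a log2 difference of -0.096 between groups, which ran from -0.20 to 0.0045 (control replicate 2 left out). Depth limits nphs1, wt1a and wt1b, which rest on 18 to 83 reads per library.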
